A study of Mus musculus with 18 samples.

Results

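To establish what the β-adrenergic agonist isoproterenol (ISO) changed in brown adipocytes in which lipolysis could proceed, the 3 libraries of cells given ISO alone were compared with the 3 libraries of cells given Vehicle alone, 6 of the 18 libraries of the study, taken by their labels. Of 20295 RefSeq genes counted, the 12156 that passed a filter on low counts were tested, and genes that fell are described beside those that rose. The cells were BAT-LgT, mouse brown preadipocytes of wild-type genotype immortalised with the SV40 large T antigen and differentiated in culture. On day 7 they received the DMSO Vehicle or 100 nM ISO, which acts on all β-adrenergic receptors, for 3 h before RNA was taken. The other groups received SR-3420, a ligand of ABHD5 that starts lipolysis, or the same agents after 1 h with inhibitors of the lipases ATGL and HSL, with 3 libraries in each of the 6 groups. BAT-LgT is a single immortalised line, so the replicates were independent experiments on it and not different animals, and the sources used here do not state whether cells without inhibitors had a mock pre-treatment.

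In brown adipocytes, noradrenaline from sympathetic nerves binds β-adrenergic receptors, which through the G protein Gs and adenylyl cyclase raise cAMP and activate protein kinase A. The kinase phosphorylates proteins of the lipid droplet, which releases fatty acids to be burned and to open the uncoupling protein UCP1, and it phosphorylates CREB, a factor that binds cAMP response elements and switches on genes within the hour. The signal is limited by phosphodiesterases that break down cAMP, by kinase inhibitors and by loss of receptors, and brown adipocytes express all of these.

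Depth and cell identity were similar in the 6 libraries. The files held 10398646 to 16062284 counts per library in 13693 to 14352 detected genes, so a gene with 3 counts in a library stood at 0.187 to 0.288 CPM, the count scaled to a common library size. Scd1, a fatty acid desaturase, took 4.10% to 5.47% of all counts in the Vehicle libraries and 7.67% to 8.61% in the ISO libraries. CPM are given relative to library sizes scaled by the trimmed mean of M values (TMM), under which the median log2 fold change of all genes was -0.02. Scaling by total counts instead lowered every log2 fold change by about 0.31, and by about 0.25 with Scd1 left out of the totals. The 20 brown adipocyte markers summed to 10752 to 12151 CPM with Vehicle and to 15525 to 16792 CPM with ISO, 17 of them passing the filter. These sums were mostly general adipocyte genes, with Vehicle means of 3593 CPM for Adipoq, 2603 for Fabp4, 1804 for Lipe and 1468 for Cebpa. Of genes more particular to brown fat, Ucp1 stood at 2.69, Elovl3 at 4.34 and Ppara at 252 CPM with Vehicle. The sums alone thus do not tell brown from white adipocytes. Zic1 and Lhx8, which mark brown preadipocytes, were at 0 or 1 count in every library, and Dio2, the deiodinase that activates thyroid hormone, had at most 6 counts and was not tested. Markers of other cells were low: 7 endothelial markers summed to at most 0.756 CPM, 11 skeletal muscle markers to at most 2.63 CPM and 10 macrophage and leukocyte markers to 8.22 to 15.8 CPM in the 6 libraries, with Ptprc, Emr1 and Mrc1 at 0 counts throughout. The 11 preadipocyte and fibroblast markers summed to 210 to 312 CPM with Vehicle and 235 to 306 CPM with ISO, the 7 Schwann cell and neuron markers to 26.2 to 27.7 CPM and 21.2 to 22.6 CPM, and the 7 white adipocyte markers, mostly Agt, to 885 to 986 CPM and 1107 to 1350 CPM. Outside the brown adipocyte list only Nnat, a gene of white adipocytes, and Myod1, a muscle regulator at 0.443 CPM with Vehicle and 1.31 CPM with ISO, passed the test described next.

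ISO raised the RNA of 612 genes and lowered that of 495, which is 5.03% and 4.07% of the genes tested (edgeR's quasi-likelihood test, Benjamini-Hochberg adjusted p of at most 0.05 and a change of at least 2-fold). These are the rates against which each gene group below is read. With total counts 339 genes were higher and 1191 lower, and the counts of many groups under that scaling are given beside the others. The raised side reached further, with 134 genes up by at least 2 on the log2 scale and 39 by at least 3, against 34 and 6 genes down by as much. The genes that fell were weakly expressed, with a median Vehicle level of 10.5 CPM, against 28.1 CPM for the genes that rose and 30.2 CPM for all genes tested. They were also short, spanning a median of 14785 bp of the genome from first to last exon, against 23466 bp for the genes that rose and 21738 bp for all. Summed over the genes that rose, the level went from 86772 to 222555 CPM, and over the genes that fell from 19106 to 7829 CPM. In 601 of the 612 and 482 of the 495 genes the ISO and Vehicle libraries did not overlap, as was so for 55.6% of all genes tested. Genes are named by a fixed rule or, where a list held few calls, by hand: Mc5r, Adora2b, Hcar2, Prkar1a, Pde8b, Fabp5, Cyp51, Pfkfb1, Foxo6, Mxd4, Bbc3, Cdkn1b, Bcl2l11, Gab1, Socs1, Stat5b, Rxra, Rarg, Fzd5, Smad3, Tcf7, Mmp15, Sema3f, Gdf5, Gclc, Slc25a29, Nnat, Myod1, Ramp3, Bdkrb2, Htra4, Fam43a, Fabp4, Ebf2, Cox8b, Cox7a1 and Folr2 were chosen after their values were seen. Fewer cells carrying an RNA and less RNA per cell cannot be told apart in such bulk libraries.

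**Figure D1:**
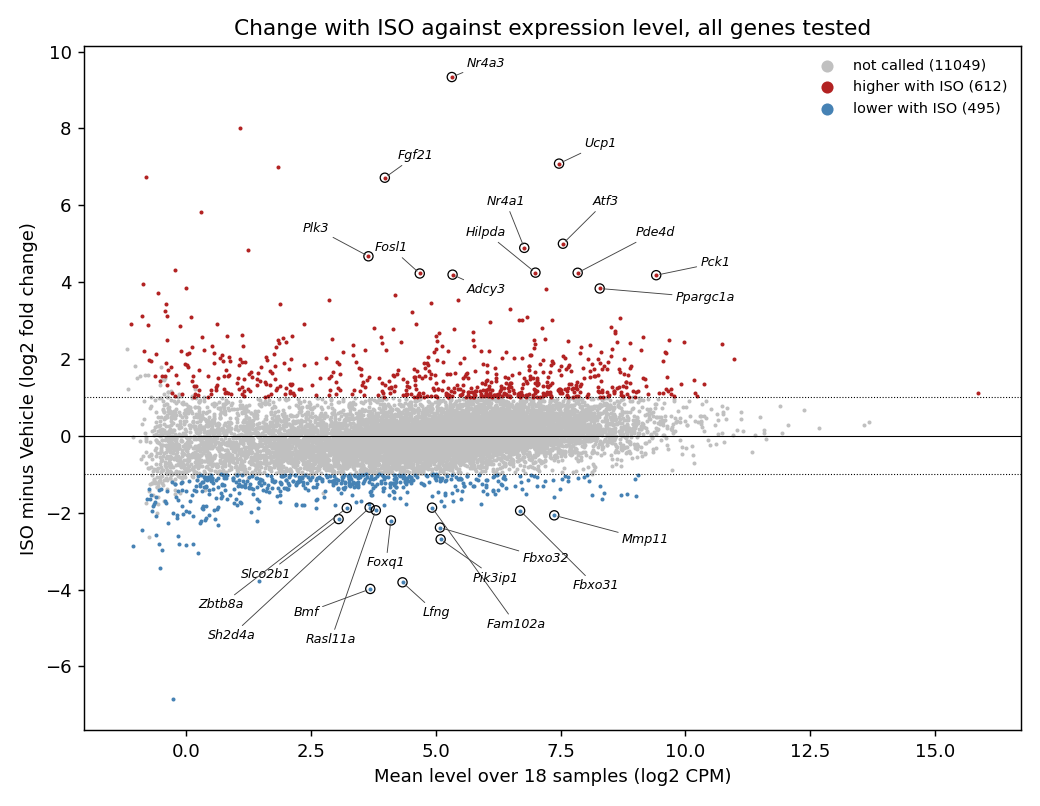
Change with ISO (log2 fold change, vertical axis) against mean level over the 18 samples (log2 CPM, horizontal axis) for the 12156 genes tested, each point a gene, with the 612 called higher in red, the 495 called lower in blue and dotted lines at a 2-fold change. The 12 most raised and 12 most lowered genes above a mean log2 CPM of 3 are circled, and the raised genes reach 9.34 (Nr4a3) while the lowered ones reach -3.98 (Bmf).

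The largest rise among genes above that level was in Nr4a3, which encodes an orphan nuclear receptor induced by cAMP, at chr4:48064120-48096224 of mm9 on the plus strand. Its level was 0.316, 0.155 and 0 CPM in the 3 Vehicle libraries and 124, 120.1 and 113 CPM in the 3 ISO libraries, and on the log2 scale it rose by 9.34 ± 0.26 (SE, adjusted p = 3.19e-17). The Vehicle values rest on 5, 2 and 0 counts, so the transcript was near the limit of detection without ISO and moderately abundant in each library with it. Ucp1, the uncoupling protein of brown fat, at chr8:85814247-85822355 on the plus strand, stood at 2.34, 3.17 and 2.56 CPM with Vehicle and at 359, 474 and 257 CPM with ISO. The rise of Ucp1 was 7.08 ± 0.28 on that scale (adjusted p = 9.56e-15), with ISO library 2 the highest and ISO library 3 the lowest, yet all 3 were far above every Vehicle library. Ppargc1a, which encodes the coactivator PGC-1α of mitochondrial and thermogenic genes, at chr5:51845488-51945160 on the minus strand, already stood at 68.1, 86.6 and 72.4 CPM with Vehicle and reached 1063, 1011 and 1167 CPM with ISO. The log2 fold change of Ppargc1a was 3.83 ± 0.09 (adjusted p = 9.94e-19), and its ISO libraries lay closer together than those of Ucp1. In the groups with lipase inhibitors the ISO effect on these genes was 8.78 ± 0.25 for Nr4a3, 8.20 ± 0.29 for Ucp1 and 1.85 ± 0.08 for Ppargc1a on the log2 scale.

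The start regions of these 3 genes are shown because CREB acts at promoters, here the 250 bases before and 50 after the annotated start, from RefSeq on GRCm38.p6. Capitals mark TGACG or its reverse complement CGTCA, the core of the cAMP response element TGACGTCA, which itself was in none of the 3 windows. The windows were matched by gene and not by transcript, and the gene positions above are on mm9. A window, that of Ppargc1a included, can therefore lie at another start than that of the transcript counted, whose own promoter was then not searched. The windows are chr4:48045055-48045354 on the plus strand for Nr4a3, chr5:51567676-51567975 on the minus strand for Ppargc1a and chr8:83290098-83290397 on the plus strand for Ucp1, each written 5′ to 3′ along its gene.
Nr4a3: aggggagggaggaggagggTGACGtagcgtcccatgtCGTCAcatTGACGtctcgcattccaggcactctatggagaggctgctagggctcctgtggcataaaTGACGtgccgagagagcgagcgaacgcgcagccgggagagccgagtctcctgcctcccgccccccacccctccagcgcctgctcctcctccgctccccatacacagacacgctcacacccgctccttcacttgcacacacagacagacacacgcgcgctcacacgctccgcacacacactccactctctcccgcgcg
Ppargc1a: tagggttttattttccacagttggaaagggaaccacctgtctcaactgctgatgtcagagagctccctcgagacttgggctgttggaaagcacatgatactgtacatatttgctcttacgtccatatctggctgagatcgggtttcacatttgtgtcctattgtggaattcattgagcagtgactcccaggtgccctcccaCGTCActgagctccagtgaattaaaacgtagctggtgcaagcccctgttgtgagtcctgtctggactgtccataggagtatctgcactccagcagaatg
Ucp1: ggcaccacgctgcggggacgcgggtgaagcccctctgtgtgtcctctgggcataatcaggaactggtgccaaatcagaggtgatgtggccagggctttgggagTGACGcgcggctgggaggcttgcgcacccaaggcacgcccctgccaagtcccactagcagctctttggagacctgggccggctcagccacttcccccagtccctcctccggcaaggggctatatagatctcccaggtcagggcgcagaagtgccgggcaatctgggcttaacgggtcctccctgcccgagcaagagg
In Nr4a3 the core was found at 4 places, starting 231, 213, 205 and 147 bases before the start of transcription. In Ppargc1a it was found 49 bases and in Ucp1 147 bases before the start. The Nr4a3 window thus held the core 4 times and the other windows held it once each.

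Of all genes tested, 9729 had such a window in the RefSeq table, with 1.28 windows per gene on average, among them 478 of the genes that rose and 382 of the genes that fell. The whole element TGACGTCA, read on both strands in any window of a gene, was in 6.49% of the genes that rose, in 1.05% of those that fell and in 3.64% of all genes tested. The core TGACG, which the whole element contains, was in 41.8%, 24.3% and 35.6%. The E-box CACGTG was in 17.4% of the genes that rose, 9.95% of those that fell and 11.8% of all. The composite element TGATGNAAN of C/EBP and ATF factors was in 4.39%, 3.14% and 2.61%, and the FOXO-type element GTAAACA was in 3.35% of the genes that rose, 3.66% of those that fell and 3.05% of all. These matches describe letters in a short window and were not tested, and a window without a match says nothing of more distant elements.

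The list of CREB-type transcription factors and coactivators holds CREB and its coactivators beside factors that cAMP is known to induce. Of 30 genes tested, 18 rose and none fell, against 5.03% and 4.07% of all genes, and the median log2 fold change was 1.44 over the list. Nr4a1, the sister gene of Nr4a3, went from 14.5, 13.7 and 13.5 CPM to 415, 479 and 348 CPM, a log2 change of 4.89 ± 0.11 (adjusted p = 9.94e-19), and Nr4a2, the third member of that family, from 6.38, 4.87 and 4.68 CPM to 17.5, 16.4 and 21 CPM. The Nr4a1 libraries were tight within each group, and neither gene overlapped between groups. Atf3, a stress-induced repressor of the ATF family, rose from 15, 15 and 12.1 CPM to 424, 593 and 338 CPM (log2 change 5.00 ± 0.16, adjusted p = 2.95e-16), and Fosl1, which encodes the AP-1 subunit FRA-1, from 3.6, 4.56 and 2.91 CPM to 73.1, 76.5 and 58.7 CPM (4.23 ± 0.18, adjusted p = 2.22e-14). The AP-1 genes Jun, Junb and Fos rose by 2.58, 1.67 and 1.53 on the log2 scale, and Jun stood at a mean of 1103 CPM with ISO. Crem, whose short forms repress CREB targets, rose by 1.61, Sik1, a kinase that shuts off CREB coactivators, by 3.01, and Cebpb, a C/EBP factor of adipogenesis, by 1.35.

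The receptor side of the pathway moved in both directions. Of 25 receptors, G protein subunits and cyclases tested, 5 rose and 2 fell, or 3 and 5 with total counts, and the median log2 fold change was 0.10, or -0.20. Adrb3, the β3-adrenergic receptor that predominates in mouse adipocytes, at chr8:28336248-28340060 of mm9 on the minus strand, stood at 235, 305 and 189 CPM in the Vehicle libraries and at 82.1, 74.7 and 83.9 CPM in the ISO libraries. This is a log2 change of -1.60 ± 0.15 (adjusted p = 1.68e-08), with all ISO libraries below all Vehicle libraries. Adrb1, the β1 receptor, was low in all libraries, between 7.15 and 10.8 CPM, and its change of 0.30 ± 0.17 did not pass the test (adjusted p = 0.154). Mc5r, a melanocortin receptor that also couples to Gs, fell by 1.23 on the log2 scale. Adcy3, an adenylyl cyclase, at chr12:4133397-4213524 on the plus strand, rose from 5.06, 5.56 and 3.35 CPM to 86, 95.6 and 77.7 CPM (4.20 ± 0.13, adjusted p = 2.72e-16). Gpr3, a Gs-coupled receptor active without ligand, had at most 3 counts in each Vehicle library and 4.3, 4.95 and 5.04 CPM with ISO. Ffar4, a receptor for long-chain fatty acids, rose by 1.75, Hcar2, the niacin receptor, by 1.25 and Adora2b, an adenosine receptor, by 1.08, the last with overlapping groups.

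In a list made for genes that limit the cAMP signal, more genes rose than fell. The list also holds Prkaca and Prkacb, the catalytic subunits of protein kinase A, which carry the signal. Of its 37 genes tested, 10 rose and 2 fell, and the median log2 fold change was 0.26, or -0.05 with total counts. Pde4d, a phosphodiesterase specific for cAMP, at chr13:109444371-110746177 of mm9 on the plus strand, went from 29.4, 29.1 and 34.8 CPM with Vehicle to 606, 558 and 601 CPM with ISO, a change of 4.24 ± 0.10 (adjusted p = 9.94e-19). Its libraries were close together in both groups. Other phosphodiesterases changed less, Pde10a by 2.91, Pde4b by 1.65 and, below the 2-fold limit, Pde3b by 0.85 ± 0.06 (adjusted p = 1.6e-10). Arrdc3, an arrestin-like protein that binds β-adrenergic receptors, rose from 85.3, 84.5 and 96.7 CPM to 229, 221 and 244 CPM, and Akap12, a scaffold of protein kinase A and the receptor, by 1.05. Prkar1a, the regulatory subunit that holds protein kinase A inactive, rose by 1.02. The genes that fell were Rgs2, a regulator of G proteins, from 496, 447 and 559 CPM to 182, 159.8 and 195 CPM (-1.49 ± 0.12, adjusted p = 1.34e-09), and Pde8b, another cAMP phosphodiesterase, which dropped by 1.14 on the log2 scale.

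**Figure D2:**
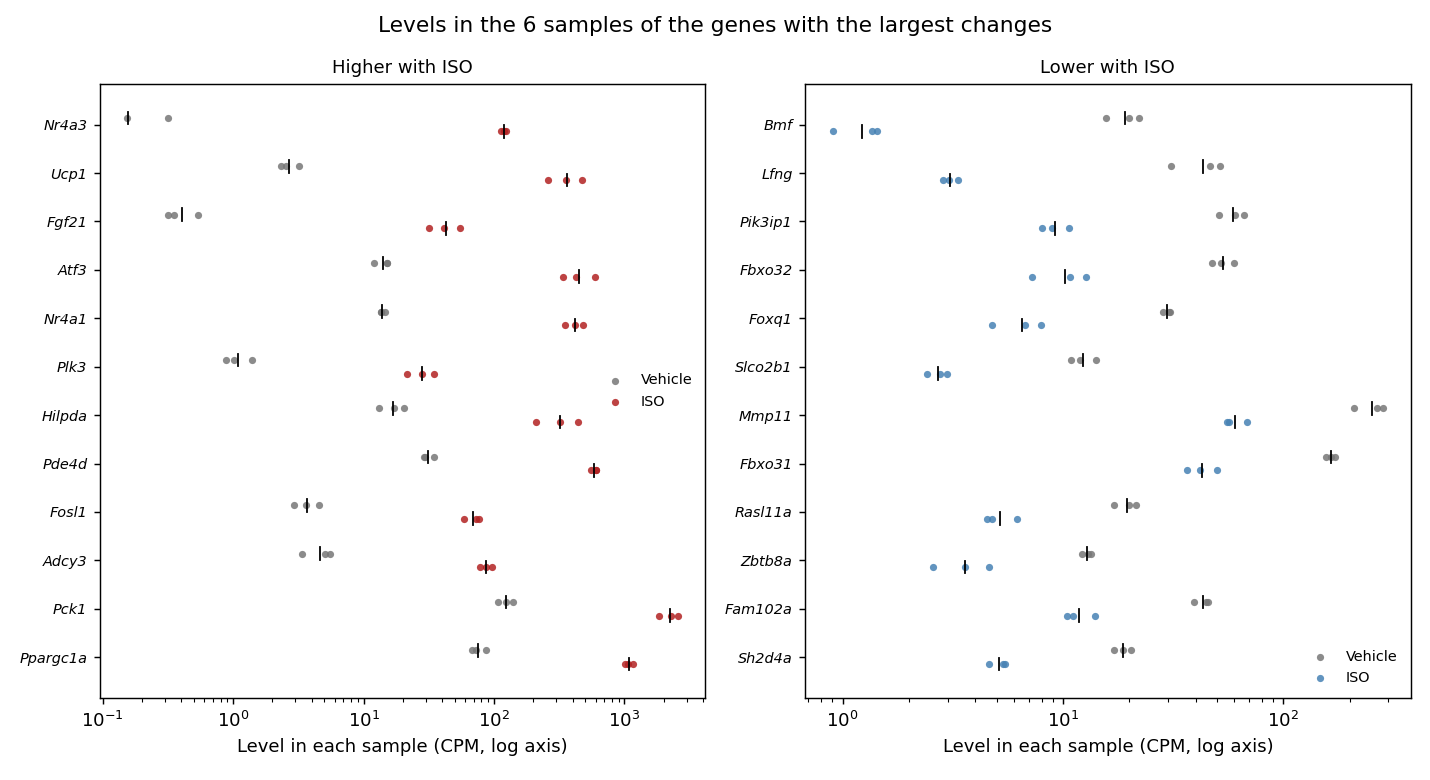
Level in each of the 6 samples (CPM, log axis) of the 12 genes with the largest rise (left, ISO in red) and the 12 with the largest fall (right, ISO in blue) above a mean log2 CPM of 3, with Vehicle in grey and a tick at each group's mean of 3 libraries. Vehicle library 3 of Nr4a3 had 0 counts and is not drawn, and in none of the 24 genes do the groups overlap.

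Of 31 tested genes of thermogenesis and brown fat identity, 9 rose, Ucp1 among them, and none fell past the fold limit. By adjusted p alone 14 were higher and 4 lower, against 26.8% and 25% of all genes tested. The list's median log2 fold change was only 0.20, and -0.11 with total counts. Elovl3, a fatty acid elongase induced in cold-exposed brown fat, went from 4.87, 4.79 and 3.35 CPM to 52.4, 66.1 and 48.5 CPM (3.66 ± 0.14, adjusted p = 5.84e-15). Gyk, glycerol kinase, which lets adipocytes reuse the glycerol of lipolysis, rose from 33.6, 39.2 and 33.9 CPM to 294, 342 and 267 CPM (3.08 ± 0.10, adjusted p = 5.48e-16). Both genes were separated between the groups in all libraries. Among regulators, Zfp516, a zinc finger activator of Ucp1, rose by 2.08, Irf4, an interferon regulatory factor that partners PGC-1α, by 1.76, Ppara, the fatty acid receptor PPARα, by 1.30 and Prdm16, a determinant of brown identity, by 1.04. The calls of Ppara and Prdm16 were lost with total counts, and that of Prdm16 also without single libraries. In the same list Cidea, a lipid droplet protein of brown fat, had a log2 change of 0.21 ± 0.19 (adjusted p = 0.384). Cox8b had -0.46 (adjusted p = 0.0172), below the 2-fold limit, Ebf2 -0.04 (adjusted p = 0.771) and Cox7a1 0.00 (adjusted p = 0.998). Of the general adipocyte genes, Adipoq, the gene for adiponectin, had a change of -0.08 ± 0.08 (adjusted p = 0.428) and Pparg, the master regulator of adipocytes, -0.16 ± 0.09 (adjusted p = 0.159). Fabp4, a fatty acid binding protein, at 0.49 (adjusted p = 0.000179), and Cebpa, a C/EBP factor of mature adipocytes, at 0.61 ± 0.09 (adjusted p = 8e-06), were higher by the adjusted p but below the 2-fold limit.

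Of 29 genes of lipolysis and the lipid droplet, 5 rose and 1 fell, or 3 and 1 with total counts. Hilpda, an inhibitor of the lipase ATGL, rose from 20.2, 13.2 and 17.2 CPM to 318, 439 and 210.2 CPM (4.25 ± 0.20, adjusted p = 2.67e-13), and Plin2, which coats lipid droplets, from 347, 320.5 and 287 CPM to 1728, 2161 and 1484 CPM (2.49 ± 0.12, adjusted p = 1.43e-13). ISO library 2 was the highest for both. The other 3 genes that rose were Dgat1, Lipa, a lysosomal lipase, at 1.15, and Fabp5, a fatty acid binding protein, at 1.01. Pnpla2, which encodes ATGL, stood at 2024 to 2303 CPM in the 6 libraries (0.03 ± 0.07, adjusted p = 0.733). Lipe, which encodes HSL, was higher by 0.62 ± 0.07 (adjusted p = 5e-07) and Abhd5, the coactivator of ATGL, by 0.62 ± 0.08 (adjusted p = 1.98e-06), both below the 2-fold limit. Pnpla3, an acylglycerol hydrolase, fell from 113, 128 and 104 CPM to 59.3, 42.3 and 60.7 CPM, a call lost without ISO library 2.

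Of 55 genes of fatty acid oxidation and PPAR targets, 11 rose and none fell, and the median log2 fold change was 0.30, or 0.00 with total counts. Acsl1, which activates long-chain fatty acids, rose from 928, 973 and 1012 CPM to 3833, 3775 and 4010 CPM (2.00 ± 0.07, adjusted p = 3.26e-15). Pdk4, a kinase that turns off pyruvate dehydrogenase, rose from 552, 547 and 535 CPM to 2852, 3033 and 2705 CPM (2.39 ± 0.10, adjusted p = 1.1e-14). Slc25a20, the carnitine carrier, rose by 1.06 and Cpt1a, the carnitine palmitoyltransferase, by 1.03, the latter lost with total counts and without ISO library 2. The peroxisomal thioesterases Acot4 and Acot5 rose by 3.53 and 6.98, but they lie in a cluster of near-identical genes whose reads may be split between copies. Cpt1b, the muscle form, had a change of 0.65 ± 0.31 (adjusted p = 0.0889) with overlapping groups.

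Synthesis of triglycerides and the handling of carbon for it were represented by 8 of 40 genes that rose and 1, Pnpla3, that fell, or 3 and 2 with total counts, and the median log2 fold change was 0.17, or -0.14. Pck1, phosphoenolpyruvate carboxykinase, which supplies glycerol for triglycerides, went from 123, 107 and 138 CPM to 2288, 1836 and 2560 CPM (4.18 ± 0.19, adjusted p = 1.43e-13). Agpat9, a glycerol-phosphate acyltransferase, rose from 171, 167 and 149 CPM to 876, 961 and 802 CPM and Dgat1, which adds the last acyl chain, from 253, 207 and 158 CPM to 689.8, 799 and 571 CPM. These 3 genes showed no overlap between groups. The genes of new fatty acid synthesis and its regulators differed among themselves. Scd1, the desaturase, went from 40713, 36670 and 50141 CPM to 91723, 86722 and 95496 CPM (1.10 ± 0.12, adjusted p = 1.42e-07), with no overlap between groups. Below the 2-fold limit but past the adjusted p, Acss2, an acetyl-CoA synthetase, had a log2 change of 0.77 ± 0.09, Elovl6, a fatty acid elongase, 0.62 ± 0.11, Fasn, fatty acid synthase, -0.50 ± 0.09, Mlxipl, the factor ChREBP, -0.66 ± 0.08 and Srebf1, a regulator of Fasn, -0.90 ± 0.08. Acly, ATP citrate lyase, had 0.11 ± 0.08 (adjusted p = 0.265), Acaca, acetyl-CoA carboxylase, 0.12 ± 0.06 (adjusted p = 0.123) and Thrsp, a protein of lipogenic tissues, -0.22 ± 0.12 (adjusted p = 0.121). In cholesterol metabolism 4 of 34 genes rose, namely Sqle, squalene epoxidase, by 1.32, Hsd17b7 and Cyp51, enzymes of the same pathway, by 1.18 and 1.03, and Insig1, which holds back sterol sensing, by 1.10. With total counts 1 gene of this list rose and 3 fell, and the median went from 0.17 to -0.14. Mylip, a ubiquitin ligase, fell from 70.9, 67.2 and 83.6 CPM to 31.6, 30.4 and 32.8 CPM.

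Of 53 genes of glucose uptake, glycolysis and glycogen, 9 rose and 1 fell, or 7 and 3 with total counts, and the median log2 fold change was 0.40, or 0.09. Slc2a1, the basal glucose transporter, rose from 111, 99.8 and 96.4 CPM to 292, 392 and 209 CPM (1.54 ± 0.14, adjusted p = 1.1e-08), and Slc2a4, the insulin-dependent one, had a change of -0.55 ± 0.13 (adjusted p = 0.00175), below the 2-fold limit. The lactate transporters Slc16a3 and Slc16a1 rose by 1.89 and 1.51, and Pfkfb3, which makes the activator of phosphofructokinase, by 1.35. Gapdh rose by 1.60, from 25.4, 19.4 and 19.8 CPM to 62, 73.5 and 61.2 CPM, a count made uncertain by its many processed copies. The gene that fell was Pfkfb1, a related enzyme of liver and muscle, which dropped by 1.09 on the log2 scale. Of 30 targets of hypoxia-inducible factors 11 rose and none fell, or 7 and none with total counts. Among them were Ak4, an adenylate kinase of mitochondria, by 1.33, and Egln3, a prolyl hydroxylase of those factors, by 1.26.

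Of 55 genes of the integrated stress response, in which the factor ATF4 induces amino acid transport and metabolism, 20 rose and none fell, or 11 and 1 with total counts, and the median log2 fold change was 0.80, or 0.49. Fgf21, a hormone secreted under stress and cold, rose from 0.316, 0.541 and 0.353 CPM to 41.6, 55.2 and 31.9 CPM (6.72 ± 0.31, adjusted p = 1.55e-13). Gdf15, another stress hormone, rose from 13.5, 13.5 and 8.47 CPM to 80.5, 82.3 and 72.3 CPM (2.71 ± 0.17, adjusted p = 1.87e-11), and Slc7a1, a transporter of arginine and lysine, from 99.3, 106 and 91.9 CPM to 511, 534 and 473 CPM (2.35 ± 0.10, adjusted p = 1.73e-14). Each was higher in all ISO libraries than in any Vehicle library. Atf4 itself rose by 1.30 and Ppp1r15a, a regulatory subunit that directs a phosphatase to eIF2α, by 1.67. Members of the same list that did not pass the fold limit included Ddit3, the factor CHOP, at 0.67 ± 0.07, Asns, asparagine synthetase, at 0.97 ± 0.08, and Trib3, a pseudokinase target of CHOP, at 0.01 ± 0.09 (adjusted p = 0.938).

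Of 36 cytosolic and mitochondrial heat shock genes 9 rose and none fell. Of 48 genes of folding and degradation in the endoplasmic reticulum 2 rose and 1 fell. By adjusted p alone 17 of these 48 were higher and 12 lower, against 26.8% and 25% of all genes tested. The difference between these lists was not tested. Hspa1b, an inducible HSP70, rose from 145, 133 and 128 CPM to 887, 1088 and 701 CPM (2.72 ± 0.15, adjusted p = 3.24e-12); its sequence is nearly that of Hspa1a, which rose by 3.00, so the division between them is uncertain. Dnaja4, a co-chaperone, rose by 2.68 and Hspb1, a small heat shock protein, by 2.47. For Hspb1, Hspa1b and Hsph1, an HSP110, ISO library 2 was the highest and ISO library 3 the lowest. In the endoplasmic reticulum Ero1l, an oxidase of disulfide bonds, rose by 1.81 and Dnajb9, a co-chaperone of BiP, by 1.29, whereas Hspa5, which encodes BiP, was higher by 0.76 ± 0.07 (adjusted p = 7.94e-09), below the 2-fold limit, and Derl3, a degradation factor, fell from 3.6, 6.11 and 3.71 CPM to 2.29, 1.26 and 1.58 CPM.

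Immediate early genes and the phosphatases that switch off MAP kinases held the most raised genes of any list. Of 50 tested, 26 rose and none fell, and the median log2 fold change was 1.05. Plk3, a stress-induced kinase, rose from 1.01, 1.39 and 0.882 CPM to 28, 34.8 and 21.4 CPM (4.67 ± 0.25, adjusted p = 1.15e-12), and Spry4, an inhibitor of receptor tyrosine kinase signalling, from 20.7, 20.1 and 19.8 CPM to 205, 224 and 165 CPM (3.30 ± 0.12, adjusted p = 3.48e-15). Dusp1 and Dusp10, phosphatases of p38 and JNK, rose by 2.82 and 2.29, whereas Dusp6, a phosphatase of ERK, had a change of 0.22 ± 0.11 (adjusted p = 0.103). Myc changed by 0.34 ± 0.08, below the fold limit. Lists overlap: Atf3, Fosl1, Jun, Junb, Fos, Egr1 and Klf4 are also in the list of cAMP-induced factors, so these counts are not independent.

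Of 46 secreted factors 10 rose and 2 fell: Nrg4, a growth factor released by brown fat, went from 23.2, 25.9 and 27.4 CPM to 92.5, 95 and 99.1 CPM (1.91 ± 0.10, adjusted p = 8.24e-13), Sema3g, a semaphorin, rose by 2.02 and Metrnl, a cytokine of muscle and fat, by 1.70, while Gdf5, a BMP family ligand, dropped by 1.72 and Sema3f, a semaphorin, by 1.54. Il6 rose by 3.84 from at most 3 counts per Vehicle library. Of 39 nuclear receptors and coregulators 10 rose and 3 fell, or 6 and 4 with total counts, with Vdr, the vitamin D receptor, from 10.6, 11.2 and 12.8 CPM to 90.6, 104 and 83 CPM (3.02 ± 0.09, adjusted p = 1.19e-16). In the clock list 6 of 25 genes rose and 1 fell, or 3 and 2 with total counts, among the former Nfil3, a repressor, by 1.68 and Rora, an activator of Arntl, by 1.44. Per3, a period gene, fell from 94.2, 93 and 118 CPM to 38, 27.1 and 42 CPM (-1.51 ± 0.17, adjusted p = 1.31e-07). Of 32 antioxidant genes 5 rose and none fell, led by Hmox1, heme oxygenase, by 2.08, with ISO library 2 again highest, followed by Osgin1 at 1.65, Slc7a11, the cystine transporter, at 1.57, Srxn1, sulfiredoxin, at 1.39 and Gclc, a subunit of glutathione synthesis, at 1.05. 

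Of 42 mitochondrial carriers 5 rose and 2 fell, or 2 and 4 with total counts, and the ATP-Mg/phosphate carrier Slc25a25 had the smallest adjusted p of all genes named here (32.1, 28.2 and 31.8 CPM to 419, 441 and 439 CPM, 3.82 ± 0.08, adjusted p = 3.28e-19). Slc25a51, the NAD carrier, rose by 2.16, while Slc25a27, an uncoupling protein of brain, fell from 5.37, 4.4 and 4.68 CPM to 1.87, 1.93 and 1.89 CPM and Slc25a29, a carrier of basic amino acids, dropped by 1.12. Genes of ribosome biogenesis shifted broadly and little, with 9 of 78 past the fold limit, or 2 with total counts, but 61 of 78 higher by the adjusted p alone, against 26.8% of all genes tested, and a median of 0.53, or 0.22 with total counts. Rrp12, a factor of ribosome export, rose by 1.75.

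**Figure D3:**
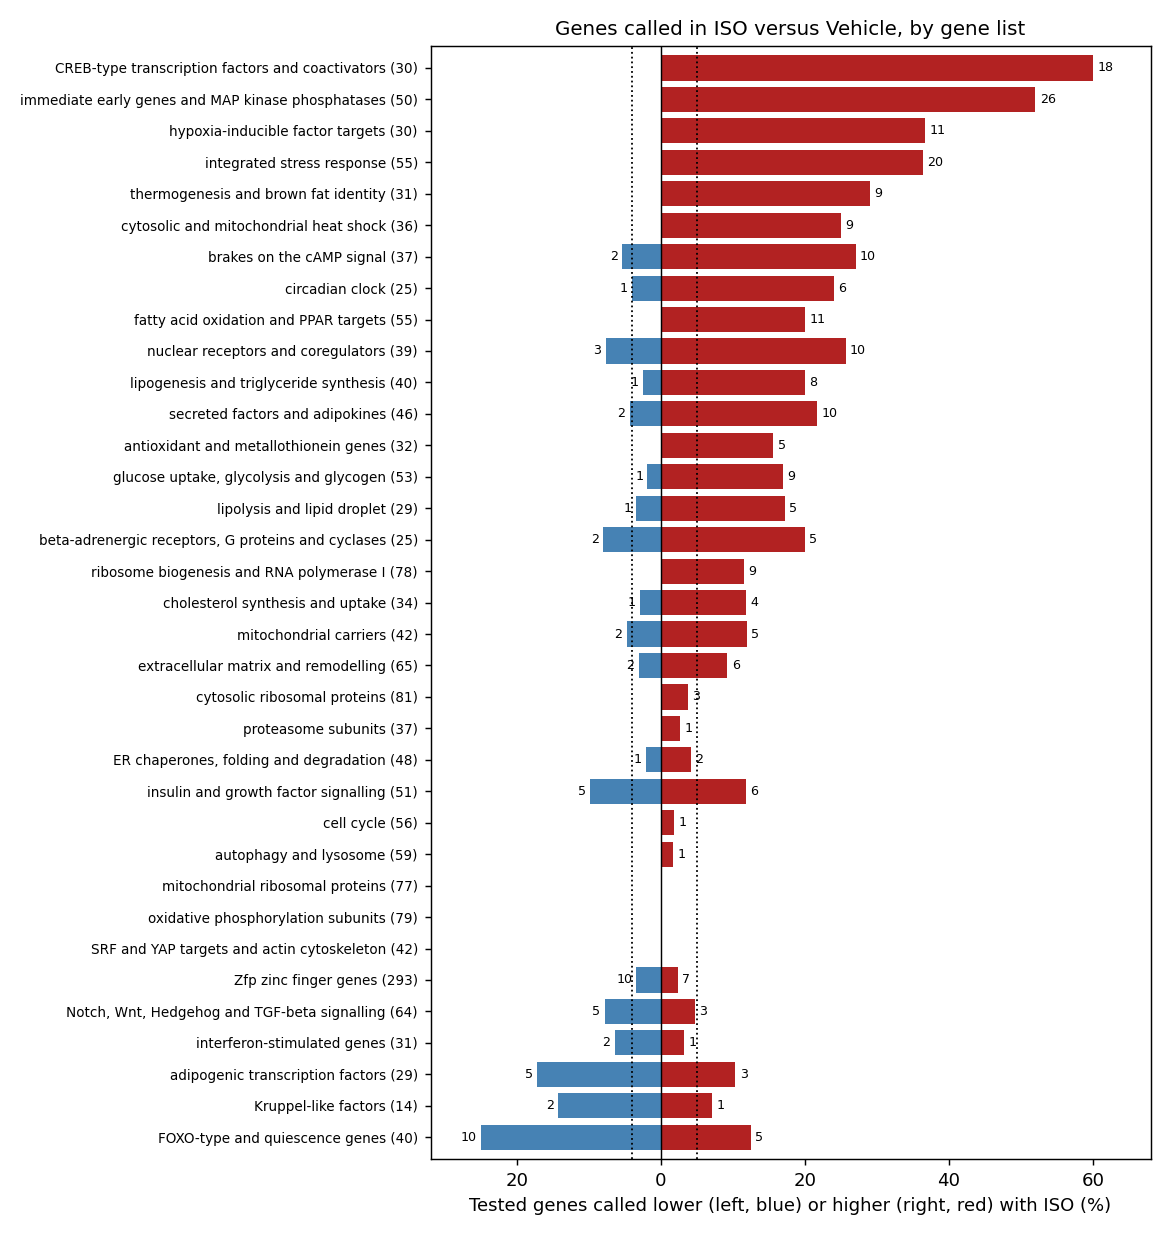
Share of the tested genes of each list that were called higher (red, to the right) or lower (blue, to the left) with ISO (%), with the number called beside each bar, the number tested in brackets and dotted lines at the shares for all genes, 5.03% and 4.07%. The CREB-type factors (18 of 30) and immediate early genes (26 of 50) head the raised side, and the FOXO-type genes (10 of 40) the lowered side.

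Several large groups held no call in either direction by edgeR's quasi-likelihood test, and none by DESeq2. Of 79 subunits of oxidative phosphorylation, 15 were higher and 5 lower at an unadjusted p under 0.05 and any fold, of 77 mitochondrial ribosomal proteins 19 and 16, and of 42 targets of SRF and YAP with actin cytoskeleton genes 14 and 4. With total counts 2 genes of the last group were called lower. The median log2 fold changes were 0.07, -0.04 and 0.05. Of all 12156 genes tested, 3521 were higher and 3427 lower at an unadjusted p under 0.05, against which such counts are read. Across the 16 lists without a gene called lower, DESeq2 also called 0 lower, and 2 to 20 genes a list were lower at an unadjusted p under 0.05. Of 56 cell cycle genes only Ccnd2, a D-type cyclin, rose, at 1.00 ± 0.07, and none fell, whereas 0 rose and 3 fell with total counts. By adjusted p alone 4 of the 56 were higher and 16 lower, against 26.8% and 25% of all genes tested, and their median was -0.17. Of 59 genes of autophagy and lysosome only Gla, α-galactosidase, rose, at 2.44 ± 0.11. The proteasome subunit Psma1 (1 of 37) and the ribosomal protein genes Rpl9, Rps13 and Rpl37 (3 of 81) were the exceptions in their families, and the latter have many processed copies that make their counts uncertain.

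Of the 495 genes that fell 53 (10.7%) were in any of the 35 lists, against 187 (30.6%) of the 612 that rose and 14.2% of all genes tested, but the lists were chosen with earlier results known, so these shares are no independent evidence. The list with the largest share lowered was that of FOXO-type and quiescence genes, which insulin signalling normally keeps low by moving FOXO factors out of the nucleus. Of its 40 tested genes 10 fell and 5 rose, and the median log2 fold change was -0.45. Bmf, a cell death protein that binds BCL-2, at chr2:118354493-118375414 of mm9 on the minus strand, went from 19.9, 15.7 and 22.1 CPM with Vehicle to 0.902, 1.43 and 1.37 CPM with ISO, a change of -3.98 ± 0.29 (adjusted p = 1.77e-10). Pik3ip1, an inhibitor of PI 3-kinase, at chr11:3230734-3242974 on the plus strand, went from 60.7, 66.4 and 51.1 CPM to 8.05, 10.7 and 8.93 CPM (-2.69 ± 0.14, adjusted p = 7.59e-13), and Fbxo32, the ubiquitin ligase atrogin-1, at chr15:58007434-58046447 on the minus strand, from 51.9, 47.5 and 60 CPM to 10.8, 7.22 and 12.7 CPM (-2.39 ± 0.24, adjusted p = 2.66e-08). In each, every ISO library was below every Vehicle library by a wide margin.

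The remaining FOXO-type genes that fell were of several kinds. Sesn1, a sestrin that restrains mTORC1, went from 49.6, 48.8 and 53.7 CPM to 16.9, 15.8 and 20.1 CPM (-1.54 ± 0.11, adjusted p = 9.7e-11), and Klf15, a Krüppel-like factor of nutrient metabolism, from 228, 207 and 217 CPM to 101, 75.5 and 115 CPM. The log2 change was -2.22 for Foxo6, a FOXO factor itself, -1.42 for Mxd4, an antagonist of MYC, -1.27 for Bbc3, the cell death protein PUMA, -1.18 for Cdkn1b, the cell cycle inhibitor p27, and -1.09 for Bcl2l11, the cell death protein BIM. Among the same list Irs2, Pdk4, Ddit4, Cdkn1a and Irs1 rose, by 2.41, 2.39, 2.31, 1.47 and 1.04, so the list did not move as a unit. Irs2 and Irs1 are adaptors of the insulin receptor, Ddit4 is an inhibitor of mTORC1 and Cdkn1a is the cell cycle inhibitor p21. The factors Foxo1 and Foxo3 changed by 0.63 ± 0.07 and 0.81 ± 0.10, below the fold limit.

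**Figure D4:**
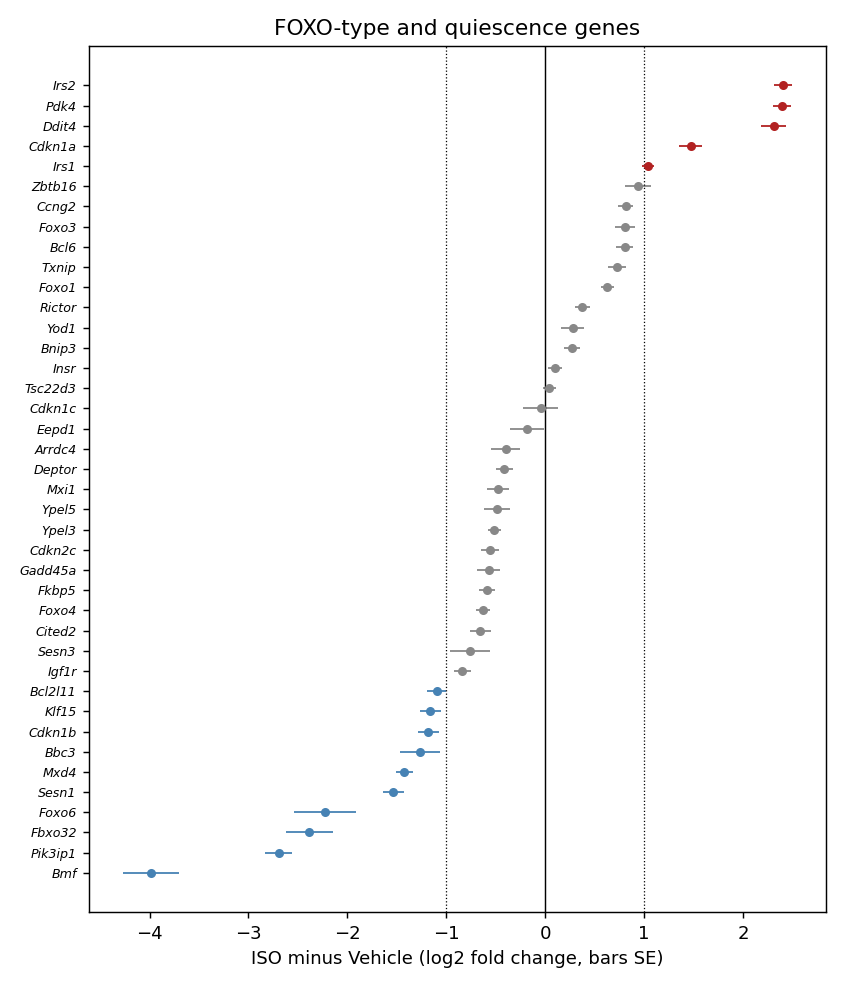
Log2 fold change of ISO against Vehicle (horizontal axis, bars SE, 3 libraries a group) for the 40 tested FOXO-type and quiescence genes, with the 10 called lower in blue, the 5 called higher in red and the others in grey, and dotted lines at a 2-fold change. Bmf at -3.98 and Irs2 at 2.41 are the ends of the range.

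Insulin signalling genes moved both ways. Of 51 insulin and growth factor genes 6 rose and 5 fell, or 2 and 6 with total counts. The insulin receptor substrates diverged: Irs2, at chr8:10986964-11008430 of mm9 on the minus strand, rose from 186, 241 and 220.4 CPM to 1196, 1127 and 1106 CPM (2.41 ± 0.09, adjusted p = 4.6e-15), whereas Irs3, the adaptor of rodent adipocytes, at chr5:138084260-138086942 on the minus strand, fell from 50.3, 54.6 and 48.2 CPM to 13.2, 13.9 and 16.7 CPM (-1.82 ± 0.14, adjusted p = 2.96e-10). Neither gene overlapped between groups. Insr, the insulin receptor, had a change of 0.10 ± 0.07 (adjusted p = 0.238). Pik3r1, the regulatory subunit of PI 3-kinase, fell from 314, 363 and 296 CPM to 163, 150.0 and 148 CPM, a call lost without Vehicle library 2, and Erbb3, a neuregulin receptor, fell from 1.26, 0.696 and 1.68 CPM to 0.416, 0.252 and 0.735 CPM with overlapping groups and a call lost without several single libraries. Gab1, a docking protein of growth factor receptors, fell by 1.16 on the log2 scale and Socs1, a suppressor of cytokine signalling, dropped by 1.21.

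Transcription factors of the adipocyte state were lowered in part. Of 29 adipogenic factors 5 fell and 3 rose, with a median of -0.01. Stat5a, a signal transducer that promotes adipogenesis, went from 191, 179 and 183 CPM to 81.3, 74 and 88.9 CPM (-1.18 ± 0.07, adjusted p = 4.11e-12). Zfp521, a zinc finger repressor of adipogenesis, fell from 4.8, 5.02 and 4.85 CPM to 1.46, 2.69 and 2 CPM. The log2 change of Stat5b was -1.02 and that of Rxra, the obligate partner of PPARγ, -1.17, and Klf15 completes the 5. The 3 that rose were Cebpb, Prdm16 and Tle3, a corepressor, at 1.34. Of 14 Krüppel-like factors 2 fell and 1 rose, or 5 and 1 with total counts. Klf13 fell from 151, 144 and 142 CPM to 68.1, 58.6 and 64.6 CPM and Klf4, an early factor, rose by 2.04. Of the 3 nuclear receptors that fell, Thra, the thyroid hormone receptor α, went from 57.8, 56 and 52.4 CPM to 26.8, 24.6 and 25.2 CPM (-1.12 ± 0.10, adjusted p = 5.19e-09), beside Rxra and Rarg, a retinoic acid receptor, which dropped by 1.16.

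In developmental signalling 5 of 64 genes (7.81%) fell and 3 (4.69%) rose, or 14 and 1 with total counts. Lfng, a glycosyltransferase that modifies Notch, at chr5:141083295-141091499 of mm9 on the plus strand, had the second largest fall of the genes above a mean log2 CPM of 3, from 51.8, 46.4 and 31 CPM to 2.85, 3.36 and 3.05 CPM (-3.81 ± 0.26, adjusted p = 1.01e-10). Acvr1c, the receptor ALK7 of adipocytes, fell from 567, 726 and 649 CPM to 301, 281 and 314 CPM, and Smad9, a signal transducer of BMP, from 20.4, 23.5 and 22.3 CPM to 7.42, 9.65 and 6.93 CPM. Notch1 had a change of -0.06 ± 0.09 (adjusted p = 0.583). Fzd9, a Wnt receptor, fell from 2.4, 1.78 and 4.32 CPM to 1.18, 0.756 and 1.37 CPM, a call lost without Vehicle library 3. Tcf7, a Wnt factor of low level, dropped by 1.14, and the genes that rose were Inhba, an activin subunit, by 1.59, Fzd5, a Wnt receptor, by 1.07 and Smad3, a TGF-β signal transducer, by 1.06. 

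In the matrix list 6 of 65 rose and 2 fell, or 4 and 4 with total counts. Mmp15, a membrane metalloprotease, dropped by 1.20, and Mmp11, a stromelysin, was the best expressed of the 12 most lowered genes, at 267, 284 and 210.3 CPM with Vehicle and 55.8, 68.8 and 57 CPM with ISO (-2.07 ± 0.16, adjusted p = 5.74e-10).

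Other genes among the 12 most lowered were in none of the lists. Fbxo31, a ubiquitin ligase subunit that degrades cyclin D1, at chr8:124073343-124102706 of mm9 on the minus strand, fell from 172, 157 and 165 CPM to 41.8, 36.6 and 50.3 CPM (-1.95 ± 0.13, adjusted p = 3e-11). Foxq1, a forkhead factor, fell from 28.4, 30.2 and 30.6 CPM to 6.73, 4.79 and 7.98 CPM (-2.20 ± 0.18, adjusted p = 8.57e-10), and Slco2b1, an organic anion transporter, from 12, 14.1 and 10.9 CPM to 2.98, 2.77 and 2.42 CPM (-2.17 ± 0.19, adjusted p = 3.04e-09). No ISO library of these genes came near the lowest Vehicle library. Rasl11a, a small GTPase, Fam102a, Zbtb8a, a zinc finger gene, and Sh2d4a, an adaptor, fell by 1.94, 1.87, 1.88 and 1.87 on the log2 scale.

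Of 31 interferon-stimulated genes tested 2 fell and 1 rose past the fold limit, or 7 and 1 with total counts, but 12 were lower and 1 higher by adjusted p alone, against 25% and 26.8% of all genes tested, and the median log2 fold change was -0.46, against -0.02 for all genes. Igtp, an interferon-induced GTPase, fell from 13, 11.1 and 12.1 CPM to 5.69, 4.62 and 5.46 CPM (-1.20 ± 0.18, adjusted p = 7.57e-06), Ifi47, another, from 1.01, 1.39 and 1.24 CPM to 0.763, 0.168 and 0.84 CPM, and Isg20, an exonuclease, rose by 1.73. Of 293 genes named Zfp, the largest family of zinc finger genes, 10 fell and 7 rose, shares of 3.41% and 2.39%, or 31 and 5 with total counts.

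Some genes were near the limit of detection in a single group. Of the genes that rose, 14 had at most 3 counts in every Vehicle library, and of those that fell, 15 had at most 3 counts in every ISO library. Ramp3, a partner protein of the calcitonin receptor-like receptor, and Bdkrb2, the bradykinin B2 receptor, were at 0 counts in every Vehicle library and at 35, 38 and 16 and at 10, 20 and 6 counts in the ISO libraries. No fold is given for them.

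To see whether the changes also appear in other libraries, ISO was compared with Vehicle among the 6 libraries of cells pre-treated with lipase inhibitors, which share no library with those above. That comparison called 5.43% of the genes tested higher and 7.63% lower. Of the 612 genes that rose without inhibitors, 271 (44.3%) also rose with them and 7 fell, and of the 495 that fell, 239 (48.3%) also fell and 3 rose. The sign was the same for 522 of the 612 and 460 of the 495, and the median log2 fold changes with inhibitors were 0.89 and -0.98. Insig1 had a log2 change of 1.10 ± 0.07 without and -2.80 ± 0.08 with inhibitors, and Thbs1, thrombospondin, went from 1.12 ± 0.10 to -1.10 ± 0.10. The 3 genes that fell without and rose with inhibitors were Fzd9, Htra4, a serine protease, and Fam43a, at 1.04 ± 0.27, 1.24 and 1.75 with inhibitors.

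The ISO effect itself was then set against that in cells with inhibitors, as an interaction in the same fit. Over all genes tested, the log2 effect with inhibitors was lower than without in 16.6% and higher in 14.9% by adjusted p. Of the 612 raised genes, 289 had a lower log2 effect with inhibitors and 73 a higher one. Of the 495 lowered genes, 120 had a higher log2 effect with inhibitors and 48 a lower one. A lower effect on a raised gene, or a higher one on a lowered gene, can be a smaller change, no change or a reversal. The difference between the effects uses the libraries in which the genes were called, which by itself favours a smaller effect in the other libraries. The shares are therefore compared between lists only as a description. A lower log2 effect with inhibitors was found for 16 of the 20 raised genes of the integrated stress response and 19 of the 26 immediate early genes. It was also found for 11 of the 18 CREB-type factors and 6 of the 9 heat shock genes. Of the 9 raised glucose genes, 1 had a lower and 2 a higher effect. Pde4d and Adcy3 had log2 effects of 4.33 ± 0.10 and 4.52 ± 0.13 with inhibitors, and their differences of 0.09 and 0.32 from the effects without did not pass the test (adjusted p = 0.659 and 0.225), whereas Slc25a25 had 1.64 ± 0.07 and Plin2 -0.64 ± 0.11. Among the 10 lowered FOXO-type genes, 4 had a higher and 2 a lower log2 effect with inhibitors, and 5 were also called lower with inhibitors. Adrb3 fell further with inhibitors, with a log2 change of -3.33 ± 0.17 (difference -1.73, adjusted p = 3.84e-06).

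**Figure D5:**
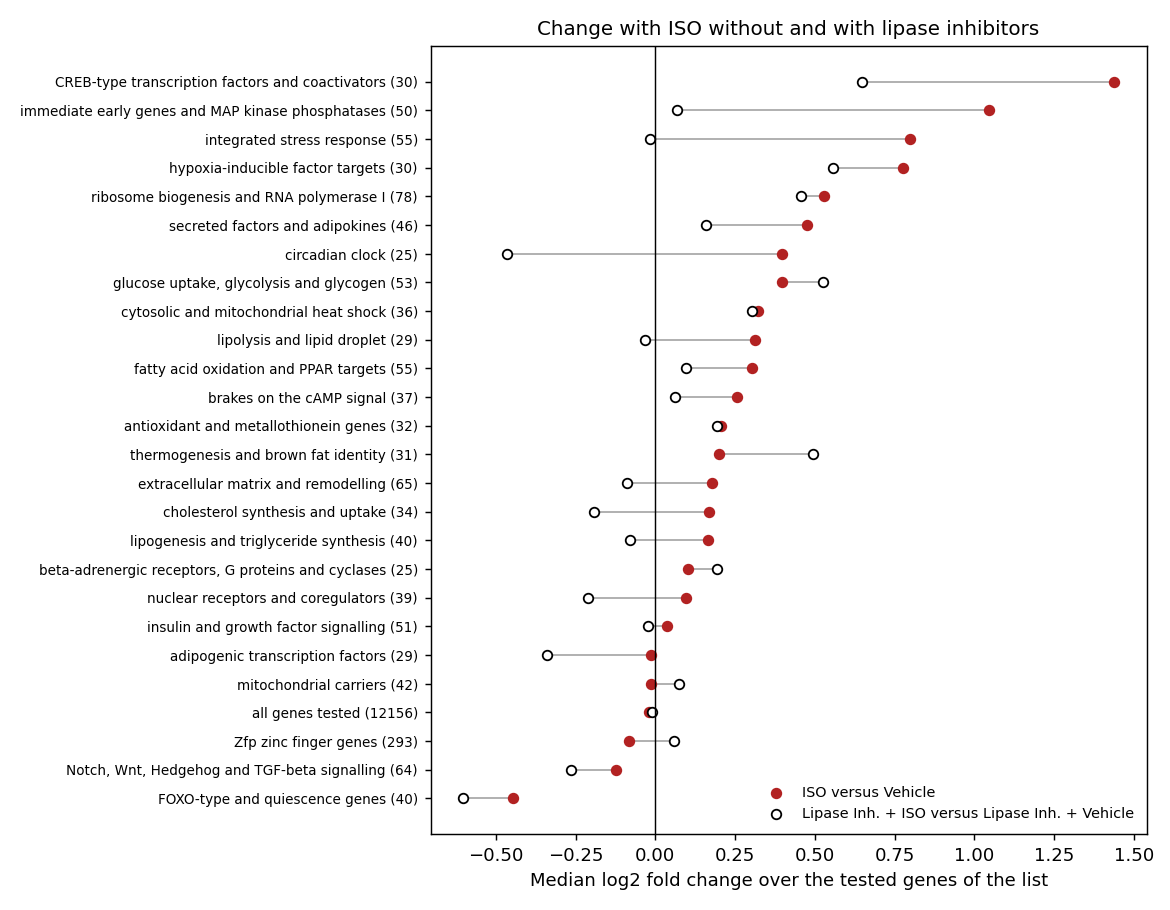
Median log2 fold change over the tested genes of each list (horizontal axis) for ISO against Vehicle without inhibitors (red) and with lipase inhibitors (open circles), for lists with at least 5 calls and for all genes tested, with the number tested in brackets. The integrated stress response moves from 0.80 to -0.02 and the immediate early genes from 1.05 to 0.07, while the FOXO-type genes stay below 0 in both, at -0.45 and -0.60.

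ISO and SR-3420 were last compared directly, a comparison that called 1.23% of the genes tested higher and 0.814% lower with ISO. It uses the same ISO libraries as ISO against Vehicle, so the counts below are not independent. Of the 612 genes that ISO raised over Vehicle, 115 (18.8%) were higher with ISO than with SR-3420 and 14 were lower, and of the 495 it lowered, 28 (5.66%) were lower and 1, Folr2, a folate receptor, was higher. Ucp1 was higher with ISO than with SR-3420 by 4.97 ± 0.23 on the log2 scale, Adcy3 by 2.80 ± 0.12 and Pde4d by 2.70 ± 0.09. For Fgf21 the difference was -0.06 ± 0.17 (adjusted p = 0.837), for Atf3 -0.31 ± 0.13 (adjusted p = 0.0707) and for Fbxo31 -0.26 ± 0.13 (adjusted p = 0.127), none of which passed the test. Fam102a was lower with ISO than with SR-3420, by -1.20 ± 0.11, and so was Mmp11, by -1.07 ± 0.16.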

How the data were processed

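RNA from differentiated BAT-LgT adipocytes was sequenced by the authors, aligned with STAR 2.4.2a to mm9, and counted per RefSeq gene with HOMER and iRNA-seq. The deposited table holds these raw counts for 20295 genes in 18 libraries. The methods describe keeping only 1 read per position and length, but Scd1 had up to 319.9 reads per counted base, so that limit does not appear in the deposited counts, which may include duplicate reads. Whether counting used strand is not given in the sources used here, so overlapping and antisense genes may share reads.

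Groups were taken from the labels, with 3 libraries each. Genes passing filterByExpr (minimum count 10, minimum total 15) were fitted with edgeR 4.0.16 (R 4.3.3, limma 3.58.1): group means over all 18 libraries, TMM scaling, quasi-likelihood F-tests and Benjamini-Hochberg adjustment over 12156 genes. Calls needed an adjusted p of at most 0.05 together with a change of 2-fold or more (1 on the log2 scale). SE are the log2 fold change over the square root of F. In simulated counts, 198 of 200 genes changed 3-fold were recovered and 3 others called, of 12048. The changed genes were drawn above a mean log2 CPM of 1 and the spread was that estimated by the fit. The recovery therefore does not cover weaker genes or smaller changes. Replicates of a group differed beyond sampling noise (chi-square per degree of freedom 4.48 to 13.0).

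Members and gene lists were chosen with earlier results of these data known. Named genes are Ucp1, Nr4a3 and Ppargc1a, the 12 largest rises and 12 largest falls among calls above a mean log2 CPM of 3 whose 3 numbered pairs all moved one way, the 4 largest calls of each list, and key genes of each list whatever their result. Some of these are not reported here. Promoters came from RefSeq on GRCm38.p6 and gene positions from the deposited table on mm9. The alternatives included DESeq2 1.42.0, total counts, other filters, a replicate block and leaving out single libraries.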

Additional observations from a re-analysis of the deposited data

Results flagged for a closer look

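For 14 of the 24 genes with the largest changes, the ISO effect differed between cells without and with lipase inhibitors, by the interaction term of edgeR's quasi-likelihood fit adjusted over all genes tested (3 libraries in each of 4 groups). Each value is the log2 effect of ISO with inhibitors minus that without. Fgf21, the stress hormone, went from 6.72 to 1.04, a difference of -5.68 (adjusted p = 3.72e-06). Plk3, the stress-induced kinase, went from 4.67 to -0.33, a difference of -5.00 (adjusted p = 4.36e-09). Atf3, the stress-induced repressor, went from 5.00 to 1.14, a difference of -3.86 (adjusted p = 2.84e-11). Hilpda, the ATGL inhibitor, differed by -2.66 (adjusted p = 3.14e-07), Nr4a1, the nuclear receptor, by -2.56 (adjusted p = 5.05e-11) and Pck1, the supplier of glycerol, by -2.42 (adjusted p = 1.34e-07). Ppargc1a differed by -1.99 (adjusted p = 3.62e-11) and Fosl1 by -1.07 (adjusted p = 0.00371), and both rose in either setting.

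Among the lowered genes the difference ran in both directions. The fall was smaller with inhibitors for Bmf, which went from -3.98 to -0.49, a difference of 3.49 (adjusted p = 1.29e-07), for Lfng, from -3.81 to -1.57, a difference of 2.24 (adjusted p = 3.77e-05), and for Rasl11a, by 0.89 (adjusted p = 0.00185). It was larger with inhibitors for Slco2b1, with a difference of -1.58 (adjusted p = 0.000419), for Pik3ip1, with -0.999 (adjusted p = 0.000741), and for Mmp11, with -0.59 (adjusted p = 0.0487). The 24 genes were chosen on the libraries without inhibitors, so this difference is not independent of the choice.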

How the results depend on the processing

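Scaling moved the balance of the calls most. With total counts in place of TMM, 339 genes were higher and 1191 lower, so 22.2% of calls were higher against 55.3%; of the genes higher, 163 were also higher with inhibitors, of those lower, 567 were also lower with inhibitors and 77 were lower than with SR-3420. Without Scd1 in the totals, an alternative chosen after seeing the data, these counts were 363, 1039, 168, 504 and 55. All 495 lowered genes remained called under both, which follows from the shift, as these scalings lowered the log2 fold changes by about 0.31 and 0.25. Of the 612 raised genes, 339 and 363 remained called. A test against a 2-fold change (glmTreat) called 288 higher and 95 lower, with 127 and 49 also called with inhibitors and 41 and 1 called against SR-3420. With no limit on the fold, 3258 were higher and 3042 lower, with 2141 and 1845 called likewise with inhibitors and 1141 and 799 against SR-3420. A minimum count of 50 left 12 lowered genes lower than with SR-3420. The cause of each shift was not tested beyond what the setting itself removes. DESeq2 called 622 and 486 genes, and leaving out single libraries gave 556 to 666 higher and 468 to 528 lower. The replicate block gave 617 and 505, of which 612 and 494 were called without it, and changed no other call by over 1.5 times. Same-numbered ISO and Vehicle libraries had deviations correlating at -0.02, 0.07 and 0.24, and differently numbered ones at -0.20 to 0.14. Over all 6 groups the mean between same-numbered libraries was -0.01, 0.15 and 0.19 for numbers 1, 2 and 3. Whether the numbers pair the samples was not settled by these values. For the 24 largest changes under the 17 alternatives that keep the fold limit, 408 values kept direction and call and 0 changed. These genes were chosen for large changes in the same libraries, which by itself favours such stability. Of the 27 list counts of at least 5 genes, under 18 alternatives, 420 stayed within 1.5 times, 28 were larger and 38 smaller. With 3 libraries a group, genes near 3 counts a library carry wide errors.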

Other observations

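Gene families noticed only after the values were seen are given here as values, without a test of the family. Of all genes tested 5.03% were called higher and 4.07% lower, and 26.8% and 25% were so by adjusted p alone. Of 27 tested Hox genes, which pattern the body axis, 7 fell and none rose by edgeR's quasi-likelihood test, 18 were lower and 0 higher by adjusted p alone, and the median log2 fold change was -0.55, or -0.36 in the cells with inhibitors. Hoxa3 went from 32.2, 33.8 and 29.8 CPM to 9.30, 8.23 and 10.4 CPM and Hoxa4 from 45.2, 44.5 and 50.5 CPM to 15.1, 13.3 and 19.4 CPM. Of 8 ephrin ligand genes 3 fell (Efna1, Efna2 and Efna4), with a median of -0.73.

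Of 11 genes that make hexosamine and hyaluronan, sugars of the extracellular matrix, 5 rose and none fell, 8 were higher and 0 lower by adjusted p alone, and the median was 0.94, or 1.16 with inhibitors. Ugdh, which makes UDP-glucuronate, went from 100.3, 92.7 and 102.5 CPM to 621, 773 and 508 CPM, and Uap1, which makes UDP-N-acetylglucosamine, rose by 2.26 on the log2 scale to 300.4, 397 and 244 CPM. The hyaluronan synthases Has1 and Has2 rose by 2.21 and 1.92 on the log2 scale, and Gfpt2, which starts the hexosamine pathway, by 2.33.

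Among 12 genes of the elongation kinase P-TEFb and its regulators, the cyclin Ccnt1 and the elongation factor Ell2 rose, by 1.01 and 1.39 on the log2 scale, while the inhibitors Hexim1 and Hexim2 fell by 1.10 and 1.03. By adjusted p alone 8 of the 12 were higher and 3 lower. Hexim1 went from 315, 294 and 287 CPM to 148, 123 and 149 CPM. Of 14 subunits of the phosphatase PP2A 4 rose and none fell (9 higher and 0 lower by adjusted p alone), of 12 tubulins 3 rose, among them Tubb2a by 2.97, and of 9 keratins 3 rose.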
